A study of Homo sapiens with 16 samples.

Results

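The axon guidance ligands and receptors are 44 of the 12676 genes listed in an RNA-seq table of H1299, a line of human non-small cell lung carcinoma. They were chosen by gene symbol, with earlier results of these data known, so the choice was not blind to the data. The symbols are those of the semaphorins of classes 3 to 7, the plexins, the 2 neuropilins, the Eph receptors and their ephrins, the slits and ROBO receptors, the netrins, the UNC5 genes, DCC and NEO1. The symbol pattern for UNC5 also took in UNC50, which encodes a Golgi membrane protein and is no guidance gene, so 43 of the 44 members are ligands (22) or receptors (21). Among the protein-coding genes of the GENCODE annotation of GRCh37, 73 match the same patterns, and 29 of them were not analysed here because the table does not list them. The cells had been infected for 48 h, in polybrene at 8 µg per ml, with virus carrying a control shRNA (shCtrl) or an shRNA against YEATS2 (shYEATS2), a subunit of the ATAC histone acetyltransferase complex. All cells were then kept in puromycin at 2 µg per ml, for 4 to 7 days by the labels and for a shorter time by the study's methods, so both groups carry a virus and passed the same selection. There were 2 libraries in each group, which the study describes as independent biological replicates, and the labels of the shYEATS2 libraries do not name the shRNA.

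Axon guidance genes encode the signals that steer growing axons and the receptors on the growth cone that read them. Semaphorins bind plexins, the secreted class 3 semaphorins mostly with a neuropilin as co-receptor, ephrins bind Eph receptor tyrosine kinases on the neighbouring cell, slits bind ROBO receptors, and netrins bind DCC, NEO1 and the UNC5 receptors. The same genes act outside the nervous system in the adhesion, migration and survival of epithelial, endothelial and tumour cells, and EPHA2 and EPHB4 are well known as Eph receptors of epithelial and tumour cells.

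The listed genes received 34718921 to 39417787 reads per library, and the counts given here were scaled by the TMM method to a common library size of 36426394 reads. The targeted gene, YEATS2, had scaled counts of 4482 and 4104 in the shCtrl libraries and of 665 and 673 in the shYEATS2 libraries. The change was -2.68 on the log2 scale (standard error 0.10, FDR 0.000583). Every FDR given comes from the quasi-likelihood test of edgeR, adjusted by the Benjamini-Hochberg method over all genes that entered the fit, which were 12676, or 12662 where a shYEATS2 library was left out. A gene is called at an FDR under 0.01. All changes are relative to the TMM scale, on which the median gene moved by -0.002 (log2), against 0.12 when libraries are scaled by their totals. Of the markers set for a lung carcinoma line, KRT8, KRT18 and VIM are listed, with summed scaled counts of 141000 and 144000 in shCtrl and of 125000 and 98000 in shYEATS2. None of the 3 was called, with log2 fold changes of -0.81 for KRT18, -0.37 for VIM and 0.31 for KRT8, and their part in the members' values was not tested. In contrast, KRT19, EPCAM, CDH1 and NKX2-1 are not among the listed genes, nor is any of the endothelial, fibroblast or immune markers looked for.

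Of the members, 17 were higher in the shYEATS2 libraries and none was lower. The 17 are 38.6% of the members, beside 12.9% of all genes tested that were called higher and 12.5% that were called lower. Of the 17, 8 are ligands, namely SEMA3A, SEMA3D, SEMA3E, SEMA4C, SEMA6A, SEMA7A, EFNA1 and SLIT3. The other 9 are receptors, namely PLXNA1, PLXNA3, PLXNB2, EPHA4, EPHA5, EPHB1, ROBO2, DCC and NEO1. The median log2 fold change was 0.56 over all 44 members, 0.60 without UNC50, 0.56 over the ligands and 0.64 over the receptors, against -0.002 over all genes. By edgeR's quasi-likelihood test, 0 members were called lower. At an unadjusted p under 0.05 in that test, 2 members (EFNB1 and SEMA4F) had a lower level and 22 a higher one. Of all 12676 genes, 3528 were lower and 3636 higher at that p. By exactTest, DESeq2 and limma, 0 members were called lower as well. Both shYEATS2 libraries lay above both shCtrl libraries in 25 members (56.8%, beside 39.7% of all genes), below both in 4 members (SEMA4F, EFNA5, EFNB1 and ROBO1, beside 39.8% of all genes), and overlapped them in 15. In a bulk sample, more RNA in every cell and more cells that express a gene cannot be told apart.

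The number called varied when single libraries were left out, in fits that have 1 library in a group and so less information on spread. Without shCtrl replicate 1 it fell to 8, with EFNA1, EPHA5, NEO1, PLXNA3, PLXNB2, ROBO2, SEMA3D, SEMA4C and SEMA6A no longer called, while the share of all genes called higher fell to 6.11%. It was 12 without shCtrl replicate 2, 18 without shYEATS2 replicate 1 and 13 without shYEATS2 replicate 2, where 6.96%, 15.6% and 7.83% of all genes were called higher, and without either of these last libraries EPHB1 did not pass the filter on low counts.

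**Figure D1:**
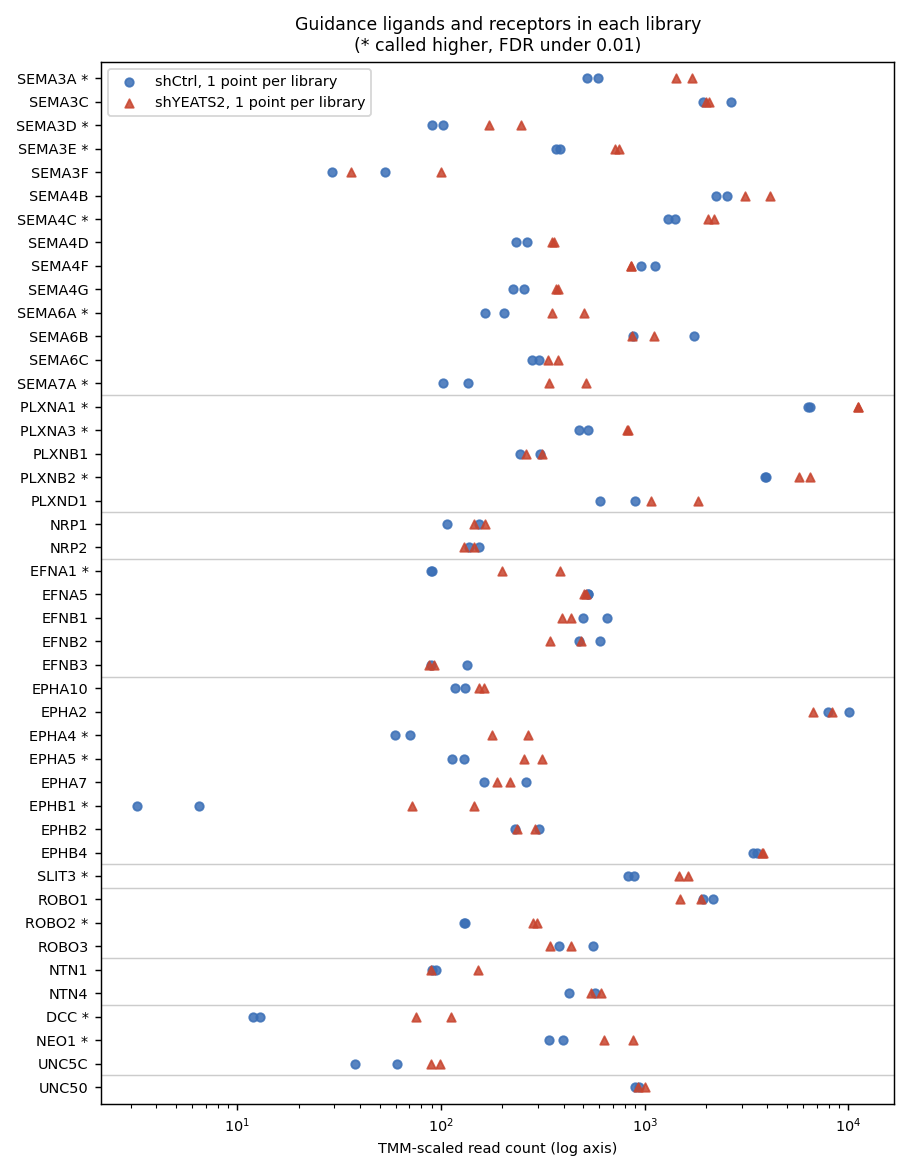
TMM-scaled read count (log axis) of each of the 44 members in each library, with circles for the 2 shCtrl and triangles for the 2 shYEATS2 libraries, grouped by family and marked with an asterisk where called higher. EPHB1 and DCC lie furthest to the left in the shCtrl libraries, at 3.23 to 12.9, and in all 17 called genes both triangles lie to the right of both circles.

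Every listed gene passed 100 reads in at least 1 library, the lowest such maximum being 101, and this bears on the count. For 8 members (EPHB1, DCC, EFNA1, EPHA4, SEMA3D, SEMA3F, NTN1 and UNC5C) only a shYEATS2 library passed 100 reads, so that they are listed because they were high there. Of these 8 members, 5 were called higher, and of all 695 genes listed in that way 32.2% were. The other 36 members passed 100 reads in a shCtrl library, and 12 of them (33.3%) were called higher with a median log2 fold change of 0.27. The same values over all 11981 genes that passed it in a shCtrl library were 11.7% and -0.035.

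**Figure D2:**
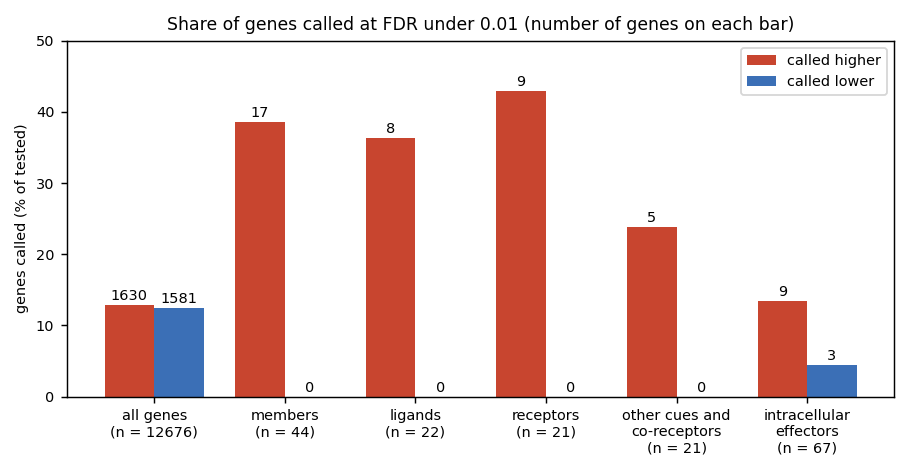
Percent of genes called higher (red) and called lower (blue) at an FDR under 0.01 in all genes tested, the 44 members, their 22 ligands and 21 receptors, and the 2 other lists of guidance genes, with the number of genes on each bar. The bars of the members stand at 38.6% higher and 0 lower, beside 12.9% and 12.5% in all genes.

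Of the 14 semaphorins, 6 were higher (42.9%, beside 12.9% of all genes) and none lower (beside 12.5%), with a median log2 fold change of 0.64. SEMA3D is among the 6 and is listed only because it was high in shYEATS2. SEMA3A, the classic secreted repellent of axons, is encoded on chromosome 7 of GRCh37 from 83585093 to 84122040. Its scaled counts were 523 and 590 in the shCtrl libraries and 1425 and 1708 in the shYEATS2 libraries, with means of 557 ± 47.5 and 1566 ± 200.4 (SD, n = 2). Its lowest shYEATS2 library was 2.41 times the highest shCtrl library. The log2 fold change was 1.49 (standard error 0.13, FDR 0.001), and it lay between 1.36 and 1.62 with each library left out in turn.

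SEMA3E and SEMA3D, both secreted, are encoded in the same stretch of chromosome 7, from 82992554 to 83278455 and from 84624869 to 84816372. SEMA3E, which can bind PLXND1 without a neuropilin, had scaled counts of 366 and 384 in shCtrl and of 717 and 750 in shYEATS2. On the log2 scale it changed by 0.97 (standard error 0.12, FDR 0.00168), and the spread within each group was far smaller than the gap between them. SEMA3D had 102 and 90.0 in shCtrl and 173 and 248 in shYEATS2, a log2 fold change of 1.13 (standard error 0.24, FDR 0.00936), the value nearest to the threshold among the called members. It was not called without shCtrl replicate 1 (FDR 0.0247), shCtrl replicate 2 (FDR 0.0387) or shYEATS2 replicate 2 (FDR 0.0313).

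SEMA3C, on the same chromosome from 80371854 to 80551675, had the highest mean level per exon length of all semaphorins in shCtrl, at 10.3 RPKM (reads per kb of exon, scaled for library size, here from the TMM-scaled counts). In shCtrl replicate 2 alone it was 8.66 RPKM, below SEMA6B and SEMA4B at 10.2 and 9.91. It was not called. Its scaled counts of 2660 and 1924 in shCtrl enclosed the 2075 and 1995 of shYEATS2 (log2 fold change -0.17 with standard error 0.16, FDR 0.385), and without shCtrl replicate 1 the log2 fold change was 0.076. SEMA3F, a secreted ligand that prefers NRP2, was the lowest in level of the semaphorins, with 29.1 and 53.2 in shCtrl and 36.4 and 99.9 in shYEATS2, and its groups overlapped (FDR 0.276).

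The class 4 semaphorins span the membrane and signal chiefly through B-type plexins. SEMA4C, a ligand of PLXNB2, had scaled counts of 1408 and 1307 in shCtrl and of 2053 and 2181 in shYEATS2. It was the only one of the 5 listed class 4 genes that was called, with a log2 fold change of 0.64 and a standard error of 0.10 (FDR 0.00323). In SEMA4B, SEMA4D and SEMA4G both shYEATS2 libraries also lay above both shCtrl libraries, with log2 fold changes of 0.60, 0.51 and 0.63 and FDRs of 0.0173, 0.0255 and 0.0124. DESeq2 called SEMA4B among these 3, and exactTest called all 3. For SEMA4G, 28.0% of the exon length is overlapped by MRPL43 on the other strand, and reads of the 2 genes cannot be told apart since the library kit does not mark strand. SEMA4F went the other way, with 963 and 1120 in shCtrl and 856 and 858 in shYEATS2, and was not called (log2 fold change -0.28, FDR 0.0862).

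SEMA6A, a transmembrane ligand of A-type plexins, had scaled counts of 164 and 205 in shCtrl and of 349 and 501 in shYEATS2 (log2 fold change 1.21 with standard error 0.22, FDR 0.00572). SEMA6C, at 280 and 302 against 337 and 374, was not called (FDR 0.131), nor was SEMA6B, whose shCtrl libraries at 877 and 1744 differed more from each other than did the shYEATS2 libraries at 870 and 1108. SEMA6B is called lower when shCtrl replicate 1 is left out (log2 fold change -0.82), and its log2 fold change is 0.18 when shCtrl replicate 2 is. SEMA7A, which is held to the membrane by a lipid anchor and also acts through integrins, had the largest log2 fold change of the semaphorins. Its scaled counts were 136 and 102 in shCtrl and 340 and 517 in shYEATS2, with means of 119 ± 23.8 and 429 ± 125 (SD, n = 2). The change was 1.85 on the log2 scale (standard error 0.25, FDR 0.00236). The gene lies on chromosome 15 of GRCh37 from 74701630 to 74726299.

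Of the 5 plexins, the receptors of the semaphorins, 3 were called higher (60.0%, beside 12.9% of all genes), with log2 fold changes from 0.64 to 0.81. PLXNA1, which pairs with neuropilins to receive class 3 semaphorins, had the highest level per exon length of the plexins and is encoded on chromosome 3 from 126701536 to 126756232. Its scaled counts were 6339 and 6454 in shCtrl and 11192 and 11193 in shYEATS2, so replicates differed far less than the groups. The log2 fold change was 0.81 (standard error 0.09, FDR 0.00136), and it lay between 0.79 and 0.82 with each library left out.

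PLXNB2 had scaled counts of 3881 and 3946 in shCtrl and of 5712 and 6506 in shYEATS2 (log2 fold change 0.64 with standard error 0.10, FDR 0.0037). PLXNA3, which acts with NRP2, had 478 and 526 in shCtrl and 830 and 821 in shYEATS2 (log2 fold change 0.72 with standard error 0.12, FDR 0.0038). PLXND1, the receptor of SEMA3E, had 603 and 897 in shCtrl and 1068 and 1822 in shYEATS2 and was not called. Its log2 fold change of 0.95 was the largest of the plexins, but its shYEATS2 libraries differed 1.71-fold from each other (standard error 0.28, FDR 0.0299). PLXND1 was called by exactTest and by DESeq2. PLXNB1, the receptor of SEMA4D, overlapped between the groups, at 243 and 306 against 312 and 262 (FDR 0.787).

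Neither neuropilin, the co-receptors of class 3 semaphorins, was called. NRP1 had scaled counts of 108 and 154 in shCtrl and of 164 and 145 in shYEATS2, and NRP2 had 154 and 137 against 145 and 130. Their groups overlapped, with log2 fold changes of 0.24 ± 0.23 and -0.08 ± 0.19 (standard error) and FDRs of 0.421 and 0.755. The sign for NRP2 turns to 0.042 when libraries are scaled by total counts.

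**Figure D3:**
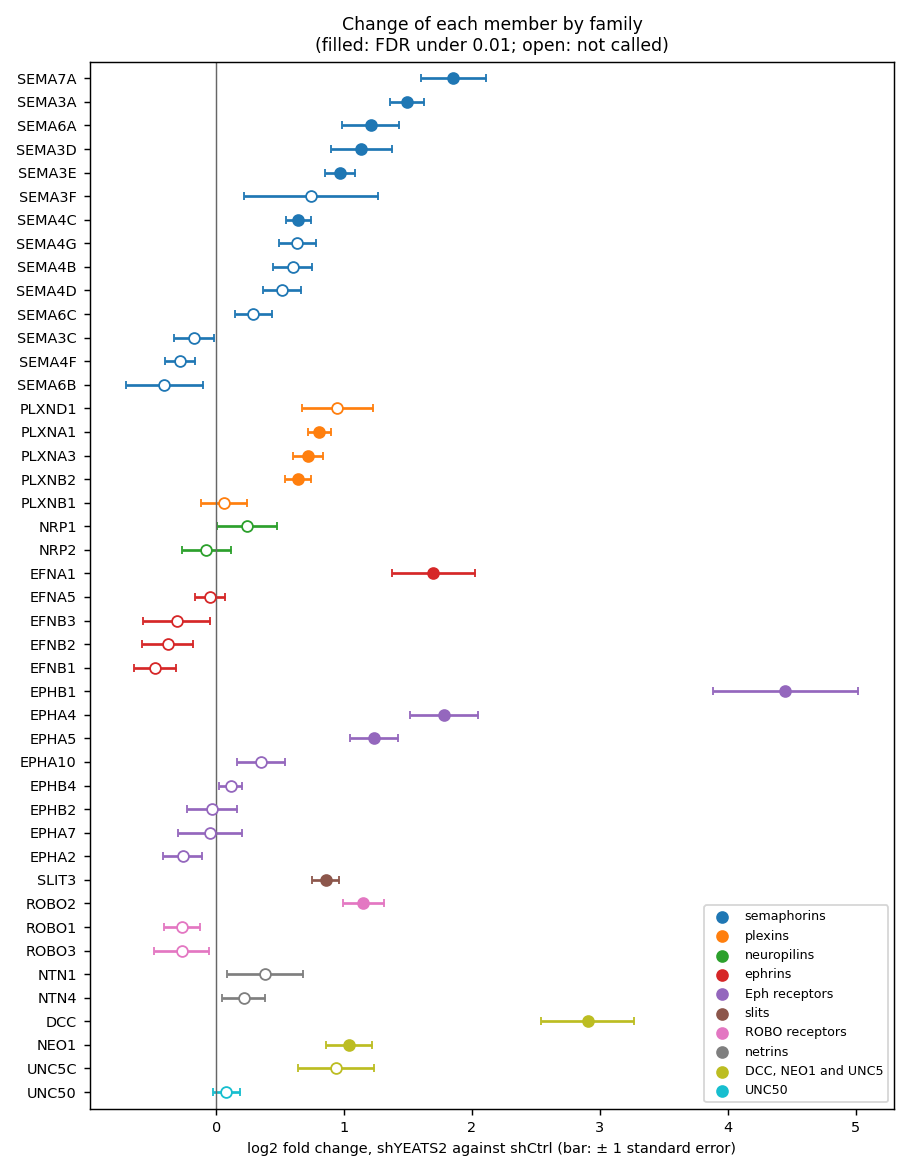
Log2 fold change of each member, shYEATS2 against shCtrl, with bars of 1 standard error of the fit, coloured by family and filled where called at an FDR under 0.01. EPHB1 (4.45) and DCC (2.90) lie furthest to the right, and the 3 ephrin-B ligands lie left of 0.

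Of the 5 ephrins, 1 was called higher, and the other 4 had log2 fold changes below 0 that were not called. EFNA1, a lipid-anchored ligand of EphA receptors, had scaled counts of 90.4 and 89.0 in shCtrl and of 198 and 383 in shYEATS2. On the log2 scale it changed by 1.70 (standard error 0.33, FDR 0.00674), and the shYEATS2 libraries differed 1.93-fold from each other. EFNA1 was not called when either shCtrl library was left out, at an FDR of 0.0128 and 0.0122. EFNA5 showed nearly equal counts in all libraries, at 526 and 527 against 502 and 517, with a log2 fold change of -0.05 that is 0.072 under scaling by total counts (FDR 0.753).

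None of the 3 ephrin-B ligands, which span the membrane and can also signal back into their own cell, was called. EFNB1 had scaled counts of 653 and 497 in shCtrl and of 433 and 392 in shYEATS2, the lowest log2 fold change of all members at -0.48 (standard error 0.16, FDR 0.048). EFNB2 had 604 and 475 against 486 and 343, and 36.4% of its exon length is shared with an antisense gene. EFNB3 had 89.3 and 135 against 87.4 and 92.8. Their log2 fold changes were -0.38 (FDR 0.159) and -0.31 (FDR 0.354), with overlapping groups, and that of EFNB3 was 0.015 without shCtrl replicate 2.

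Among the 8 Eph receptors, 3 were called higher (37.5%, beside 12.9% of all genes), all of them low in the shCtrl libraries. Of these 3, EPHB1 and EPHA4 are listed only because they were high in shYEATS2. A receptor as low as these in shCtrl that did not rise would not be listed. The 2 receptors with the highest level per exon length were not called. EPHA7, EPHA10 and EPHB2 were also low, at mean shCtrl levels of 0.35, 0.42 and 0.59 RPKM beside 0.34 for EPHA5, and were not called. EPHB1, a receptor of the ephrin-B ligands on chromosome 3 of GRCh37 from 134514102 to 134979309, had 3.23 and 6.51 scaled counts in shCtrl and 71.7 and 145 in shYEATS2. This rests on 9 reads in the shCtrl libraries and 237 in the shYEATS2 libraries, a ratio after scaling of 22.7 with an exact 95% interval of 11.8 to 50.2 that covers counting error only. On the log2 scale the fitted change was 4.45 (standard error 0.57, FDR 0.00189), and the shYEATS2 libraries differed 2.02-fold from each other.

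EPHA4, which binds ephrins of both classes, had scaled counts of 59.2 and 70.5 in shCtrl and of 178 and 268 in shYEATS2 (log2 fold change 1.78 with standard error 0.27, FDR 0.00305). EPHA5, a receptor known mainly from the brain, had 113 and 129 in shCtrl and 255 and 314 in shYEATS2 (log2 fold change 1.23 with standard error 0.19, FDR 0.00339). In both, every shYEATS2 library was at least 1.98 times the highest shCtrl library. EPHA10, an Eph receptor whose kinase domain is inactive, had 117 and 131 against 163 and 154 and was not called (FDR 0.165).

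EPHA2 stood far above the other Eph receptors in level. Its scaled counts were 10090 and 7908 in shCtrl and 8283 and 6721 in shYEATS2, groups that overlapped (log2 fold change -0.26 with standard error 0.15, FDR 0.193). EPHB4, the next in level, had 3402 and 3565 in shCtrl and 3747 and 3788 in shYEATS2. These did not overlap, but the log2 fold change of 0.11 had a standard error of 0.09 (FDR 0.331). EPHB2 and EPHA7 overlapped as well, with log2 fold changes of -0.04 and -0.05 that are 0.085 and 0.067 under scaling by total counts.

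SLIT3, the only slit among the listed genes and a secreted ligand of ROBO receptors, was called higher. Its scaled counts were 891 and 830 in shCtrl and 1478 and 1633 in shYEATS2, with means of 860.4 ± 43.1 and 1555 ± 110 (SD, n = 2) and a log2 fold change of 0.85 (standard error 0.11, FDR 0.00188). It is encoded on chromosome 5 from 168088745 to 168728143. Of the 3 ROBO receptors, ROBO2 was higher, at 131 and 129 in shCtrl and 282 and 296 in shYEATS2 (log2 fold change 1.15 with standard error 0.16, FDR 0.00252). Its neighbour on chromosome 3, ROBO1, the ROBO with the highest level, was not called, with 2155 and 1923 in shCtrl and 1898 and 1489 in shYEATS2 (log2 fold change -0.27, FDR 0.146). ROBO3 overlapped between the groups, at 381 and 560 against 435 and 345 (FDR 0.322).

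The netrin receptors DCC and NEO1 were both called higher, and the netrins were not. DCC, on chromosome 18 of GRCh37 from 49866567 to 51062269, had 12.9 and 11.9 scaled counts in shCtrl and 75.7 and 111 in shYEATS2. These were 23 reads against 203, a ratio after scaling of 7.61 with an exact 95% counting interval of 4.93 to 12.3. DCC is listed only because it was high in shYEATS2. The log2 fold change was 2.90 (standard error 0.36, FDR 0.00178), and it lay between 2.60 and 3.15 with each library left out.

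NEO1, the DCC relative that also receives repulsive guidance molecules, had 340 and 396 in shCtrl and 635 and 875 in shYEATS2 (log2 fold change 1.04 with standard error 0.18, FDR 0.00505). It was no longer called without shCtrl replicate 1 (FDR 0.0164) or without shYEATS2 replicate 2 (0.79, FDR 0.0106). UNC5C, a repulsive netrin receptor, had 37.7 and 60.8 in shCtrl and 89.4 and 99.0 in shYEATS2 and was not called (log2 fold change 0.94 with standard error 0.29, FDR 0.0367).

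NTN1, the netrin that attracts axons through DCC, had 94.7 and 90.0 in shCtrl and 152 and 89.3 in shYEATS2, so that the replicates of shYEATS2 fell on either side of the controls (FDR 0.314). NTN4, a netrin of basement membranes, had 426 and 568 against 543 and 609 (FDR 0.317). UNC50, the member that is no guidance gene, had 895 and 938 against 931 and 1007 (log2 fold change 0.08, FDR 0.562).

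Set per exon length, the families differed in what the called genes contributed. In RPKM, the 5 plexins summed to 33.7 and 35.3 in the shCtrl libraries and to 54.8 and 59.8 in the shYEATS2 libraries. The abundant PLXNA1, with a mean level of 15.6 in shCtrl and 27.3 in shYEATS2, and PLXNB2, with 14.8 and 23.1, were both among the called genes there. The semaphorins summed to 43.9 and 47.5 in shCtrl and to 54.2 and 63.1 in shYEATS2.

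In contrast, the Eph receptors summed to 83.3 and 69.7 in shCtrl and to 74.1 and 64.6 in shYEATS2, values that overlapped. EPHA2 made up 80.3% and 75.3% of that sum in the shCtrl libraries and 74.1% and 68.9% in the shYEATS2 libraries, while EPHB1 had a mean level of 0.023 in shCtrl and of 0.51 in shYEATS2, and DCC, in the netrin receptor family, of 0.026 and 0.20. The ephrins overlapped too, at 13.2 and 11.5 against 11.9 and 13.3, as EFNA1 went from a mean level of 1.14 to 3.69 and EFNB1 from 4.78 to 3.43. Over all members the median shCtrl level was 1.23, beside 6.04 over all genes tested.

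**Figure D4:**
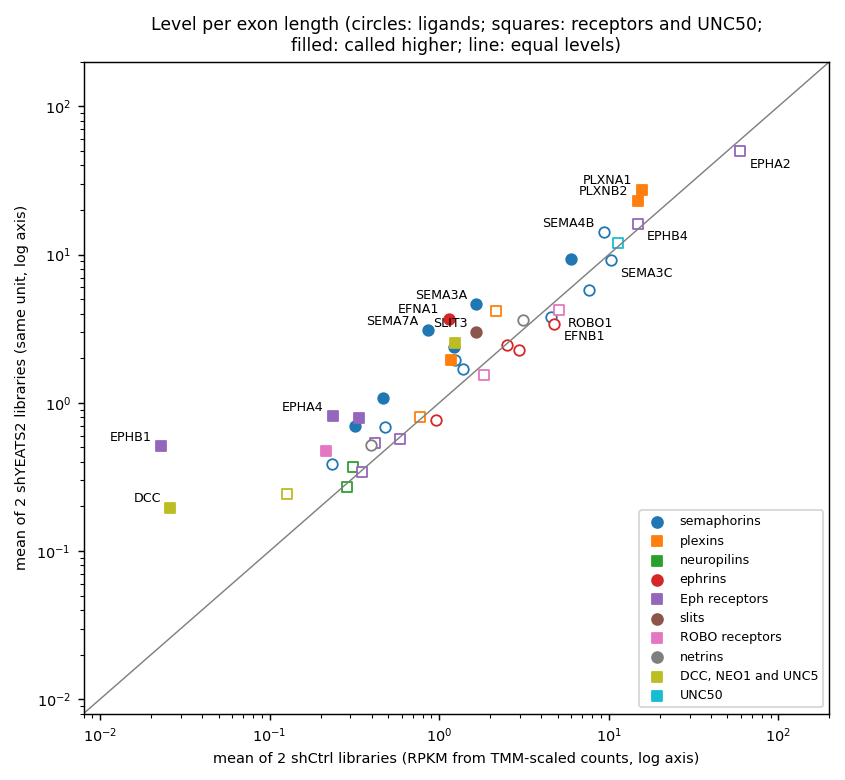
Mean level of each member in the shCtrl (horizontal) and shYEATS2 libraries (vertical), in RPKM on log axes, with circles for ligands, squares for receptors and UNC50, and filled symbols for called genes. EPHA2, at 59.7 and 49.7, lies beyond all others near the line of equal levels, and EPHB1 and DCC lie furthest to the left and furthest above it.

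The shYEATS2 replicates were not alike in the called genes. In 16 of the 17 the count was higher in shYEATS2 replicate 2 than in replicate 1, with a median log2 ratio of 0.30, and the same held in 85.3% of all genes called higher, with a median of 0.17. Among the 27 members that were not called it held in 14. The median log2 fold change of the members against the shCtrl mean was 0.45 in shYEATS2 replicate 1 and 0.58 in replicate 2. Of 7 neuron markers, the 3 listed (MAP2, SYP and TUBB3) summed to 2050 and 2140 in shCtrl and to 3290 and 3190 in shYEATS2, of which MAP2, at a mean of 726 in shCtrl and 1723 in shYEATS2, was called higher. SYP and TUBB3 were not called, and SYP lay lower in both shYEATS2 libraries (262 and 257) than in both shCtrl libraries (314 and 312). RBFOX3, STMN2, NEFL and GAP43 are not among the listed genes, and the part of such a change in the members' values was not tested.

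The members are long genes, with a median genomic span of 92600 bp beside 33000 bp over all genes, a property that the choice of symbols did not use. Of the 22 members that span 100 kb or more, 11 were called higher with a median log2 fold change of 0.90, and of the other 22 members 6 were (27.3%), with a median of 0.32. The long members include EPHB1, DCC, EPHA4, SEMA3D, NTN1 and UNC5C, which are listed only because they were high in shYEATS2. EPHB1, DCC, EPHA4 and SEMA3D are among the 11 called. Over all genes, 17.4% of those that span 100 kb or more were called higher and 11.8% of the shorter ones.

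Promoters are printed for the 3 members with the largest log2 fold changes, and for EPHA2 as the abundant member that was not called. Each is the 250 bases before the first start site listed by RefSeq, 5′ to 3′ on the strand of the gene, in GRCh38.p14. Capitals mark a site, on either strand, of 3 motifs, the CCAAT box with the letters CCAAT, the TATA box with the letters TATAAA, and the GC box with the letters GGGCGG. Overlapping sites were counted separately.
EPHB1 (chr3:134795010-134795259, plus strand): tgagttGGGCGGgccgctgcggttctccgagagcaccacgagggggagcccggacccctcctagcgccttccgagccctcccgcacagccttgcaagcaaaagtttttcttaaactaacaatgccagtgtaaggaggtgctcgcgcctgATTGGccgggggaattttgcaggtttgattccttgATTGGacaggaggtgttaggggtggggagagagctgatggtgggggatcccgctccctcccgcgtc
DCC (chr18:52339947-52340196, plus strand): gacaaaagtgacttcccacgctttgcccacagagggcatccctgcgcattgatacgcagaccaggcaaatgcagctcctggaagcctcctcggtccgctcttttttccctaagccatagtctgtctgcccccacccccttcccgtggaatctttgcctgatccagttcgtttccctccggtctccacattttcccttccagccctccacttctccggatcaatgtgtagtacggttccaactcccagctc
SEMA7A (chr15:74433959-74434208, minus strand): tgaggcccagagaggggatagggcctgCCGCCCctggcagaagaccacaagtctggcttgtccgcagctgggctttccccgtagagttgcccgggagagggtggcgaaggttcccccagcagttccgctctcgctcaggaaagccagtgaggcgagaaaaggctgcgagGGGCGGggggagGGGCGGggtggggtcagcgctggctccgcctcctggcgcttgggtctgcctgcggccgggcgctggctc
EPHA2 (chr1:16156070-16156319, minus strand): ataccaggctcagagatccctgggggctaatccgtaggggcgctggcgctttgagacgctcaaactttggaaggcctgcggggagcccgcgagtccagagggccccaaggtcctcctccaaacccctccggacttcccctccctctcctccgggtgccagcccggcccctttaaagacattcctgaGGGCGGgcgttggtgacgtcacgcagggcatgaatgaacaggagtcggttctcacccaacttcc

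In these windows EPHB1 had 2 CCAAT sites and 1 GGGCGG site, SEMA7A had 3 GGGCGG sites, EPHA2 had 1, and the DCC window held none of the 3 motifs. The number of CpG dinucleotides was 15, 10, 17 and 15 in EPHB1, DCC, SEMA7A and EPHA2. RefSeq promoters were matched for 37 of the 44 members, with a median of 19 CpG, beside 21 over the 9085 tested genes with a promoter and 11 over all 27305 promoters. CCAAT was found in 2 of the 15 matched members that were called and in 10 of the 22 that were not, beside 35.7% of tested genes and 33.0% of all promoters. GGGCGG was found in 10 of the 15 and 17 of the 22, beside 69.0% and 42.3%, and TATAAA in none of the 15 and 1 of the 22, beside 4.69% and 11.1%. A match describes only the letters in these windows.

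Downstream of the receptors, 67 of 78 genes in a list of intracellular effectors are listed. In this list 9 were called higher (13.4%, close to the 12.9% of all genes) and 3 lower (4.48%, beside 12.5% of all genes), with a median log2 fold change of -0.07. At an unadjusted p under 0.05 in edgeR's quasi-likelihood test, 23 were higher and 19 lower, beside 3636 and 3528 of all 12676 genes. The 4 with the largest rises were SRGAP3, a GTPase-activating protein named for its part in slit-ROBO signalling, CHN2, a Rac GTPase-activating protein, LIMK1, the kinase that inactivates cofilin, and the kinase SRC. Their log2 fold changes were 2.29, 1.61, 1.54 and 1.24, and SRGAP3 passed 100 reads only in a shYEATS2 library, which put it in the table. LIMK1 had scaled counts of 2965 and 2609 in shCtrl and of 7717 and 8528 in shYEATS2 (FDR 0.000793). The 3 called lower were PIK3R1, a regulatory subunit of PI3 kinase, which fell by 1.34 on the log2 scale, VAV2, a guanine nucleotide exchange factor, by 0.85, and SIPA1L1 by 0.80. DPYSL5, DPYSL3 and NGEF, named here after their values were seen, had log2 fold changes of -1.34, -1.14 and -1.04 but were not called. DPYSL5 passed 100 reads only in a shCtrl library. The GTPases RAC1, CDC42 and RHOA, named here after their values were seen, were not called, with log2 fold changes of -0.14, 0.08 and -0.47. Their FDRs were 0.251, 0.520 and 0.017. RAC1 and RHOA lay lower in both shYEATS2 libraries than in both shCtrl libraries, and CDC42 lay higher.

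Of 48 other cues and co-receptors, 21 are listed. By edgeR's quasi-likelihood test, 5 were called higher (23.8%, beside 12.9% of all genes) and none lower (beside 12.5%), with a median log2 fold change of 0.29. At an unadjusted p under 0.05 in that test, 10 were higher and 1 lower, beside 3636 and 3528 of all 12676 genes. BOC, a co-receptor for hedgehog, changed by 1.19, CELSR3, a cadherin needed for axon tracts, by 0.79, RGMB, a ligand of NEO1, by 0.72 and BMPR2, a receptor of bone morphogenetic proteins, by 0.60. FLRT3, a ligand of UNC5 receptors with a mean scaled count under 100, changed by 2.48, and is named here because it completes the 5. It passed 100 reads only in a shYEATS2 library, so it is listed because it was high there. RGMB had mean scaled counts of 2005 ± 101 in shCtrl and 3292 ± 324 in shYEATS2 (SD, n = 2, FDR 0.00326).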

How the data were processed

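Of the 16 samples of the series, the 4 RNA-seq libraries were used, and the 12 ChIP-seq samples were not analysed here. The authors deposited whole-number read counts per gene, not normalized, for which the methods name the RNA-Seq unified mapper, hg19 and HTSeq at default parameters, while the submitters' processing notes list TopHat2 2.0.10 and HTSeq 0.6.1p1. The annotation used for counting is not given in the sources used here. The authors deposited columns of their own log2 fold change, p-value and FDR per gene as well, which were not used.

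Libraries were grouped by their labels. The filter of 10 reads in 2 libraries or more kept all 12676 genes, which were tested by the quasi-likelihood test of edgeR 4.0.16 in R 4.3.3 with TMM scaling, no covariate and an FDR threshold of 0.01. The biological coefficient of variation was 0.107 and log2 fold changes had a median standard error of 0.12. The alternatives were edgeR's exactTest (the study's test), DESeq2 1.42.0, limma-trend (limma 3.58.1, prior count 1), scaling by RLE, total counts or upper quartile, each library left out, an FDR under 0.05, a replicate block, no filter, and a stricter one (mean count of 100 or more). The script was tested on simulated data. Members and lists were chosen with earlier results of these data known. Every called member is named. Of each other list, the 4 largest rises and falls are named among called genes with a mean scaled count of 100 or more. The member with the highest level in each family is also named, ranked per exon length, where the plan had ranked by mean scaled count. By mean scaled count SEMA4B, at 2990, was first of the semaphorins, and EFNA5, at 518, was first of the ephrins. Other members are named since the symbol rule fixed them. Levels per length use the exons of GENCODE genes of GRCh37, to which 98.3% of the genes and all 44 members matched. Intervals cover counting error only.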

Additional observations from a re-analysis of the deposited data

How the results depend on the processing

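Each group had 2 libraries, and the number of calls varied with the test. Against 3211 genes called in all, exactTest called 5093, exactTest with total counts 5242, the fit with a replicate block 5457 and an FDR under 0.05 gave 6104, and leaving out 1 library gave 1625 to 3995, with the lone library of a group assumed to vary like the other group. Against 17 members called higher, the numbers were 22 by exactTest with either scaling, 19 by DESeq2, 17 by limma, 19 with total counts, 15 at a mean count of at least 100, 21 with the replicate block, 22 at an FDR under 0.05 and 8 to 18 with a library left out. Members called lower were 0, but 1 (EFNB1) with the replicate block and at an FDR under 0.05, and 0 to 1 with a library left out (SEMA6B). The share of all genes called higher varied as well. It was 12.9% in the main fit, 20.5% by exactTest, 27.3% by exactTest with total counts, 17.0% by DESeq2 and 13.0% by limma. It was 18.6% with total counts and 13.4% at a mean count of at least 100. With the block it was 21.6%, and at an FDR under 0.05 24.4%. Genes called lower numbered 1581, against 2497 by exactTest, 1778 by exactTest with total counts and 2190 by DESeq2. There were 2715 with the block and 3011 at an FDR under 0.05. Total counts gave 2363 genes higher and 1166 lower, so that 67.0% of the calls were higher, against 50.8% with TMM. The median log2 fold change of the members, 0.556, was 0.676 with total counts in either test, 0.378 at a mean count of at least 100 and 0.393 to 0.556 with a library left out, and 0.265 over the members that passed 100 reads in a shCtrl library, an alternative chosen after seeing the data. SEMA3A, SEMA3E, SEMA7A, SLIT3, PLXNA1 and EPHA4 were called in all 15 settings, DCC in the 14 and EPHB1 in the 12 in which they passed the filter. Leaving the filter off gave the main fit again, since the filter kept every gene. An FDR under 0.05 could only add calls to that fit, so neither setting could lose a call. Of the intracellular effectors, 9 were higher, against 21 by exactTest with total counts, 15 with total counts, 15 with the block, 19 at an FDR under 0.05 and 4 to 12 with a library left out. Those lower were 3, against 10 by exactTest, 7 with total counts in exactTest, 9 by DESeq2, 14 with the block, 15 at an FDR under 0.05 and 3 to 11 with a library left out. Of the other cues, 5 were higher, against 8 by exactTest, 10 with total counts in exactTest, 9 with the block, 9 at an FDR under 0.05 and 1 to 7 with a library left out, and 0 lower, against 1 with the block and 1 at an FDR under 0.05. The labels do not say that equal replicate numbers share a batch, and with 2 pairs the correlation of the replicate differences between the groups, 0.40 over all genes, does not settle it. YEATS2 was called lower in every setting. Genes with few reads, such as EPHB1 and DCC in the shCtrl libraries, have the least precise fold changes.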

Other observations

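The 4 listed class 3 semaphorin genes of chromosome 7 lie in a stretch of GRCh37 with few other listed genes. Within 1 Mb of SEMA3C, SEMA3E, SEMA3A and SEMA3D, 7 genes were tested, of which 4 were called higher and none lower by edgeR's quasi-likelihood test. The 4 include SEMA3E, SEMA3A and SEMA3D, which were already counted among the members and around which the stretch was drawn. SEMA3D is listed only because it was high in shYEATS2. The 3 that are not members were chosen by position after the values of the semaphorins had been seen. CACNA2D1, a calcium channel subunit encoded from 81575760 to 82073272, was the fourth called gene, with a log2 fold change of 0.87 (standard error 0.12, FDR 0.00257). PCLO, a presynaptic scaffold gene encoded from 82383328 to 82792246, was not called at 0.39 (standard error 0.10, FDR 0.0179), nor was GNAI1, a G protein subunit, at 0.04 (standard error 0.10, FDR 0.784). All 7 span over 100 kb, a class of genes of which 17.4% were called higher.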
